A study of Homo sapiens with 18 samples.

Results

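Isolated MYC-binding sites were narrow regions of reproducible MYC chromatin immunoprecipitation signal with no other such region nearby. Peaks of 9 MYC ChIP-seq lists were merged on chromosomes 1 to 22 where they shared at least 1 bp, which gave 42343 regions, and 13997 of these held a peak in all 3 lists of the scramble control. A region was taken as isolated when it was under 1000 bp wide and more than 250 kb, edge to edge, from the nearest other of the 13997. This left 683 isolated sites (4.88%) and 13314 other reproducible regions. A further 88 regions lay beyond the distance but were too wide. Positions are given in hg19, and distances count every base of the build, assembly gaps included.

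All libraries came from MCF10A, an immortalised, non-tumour breast epithelial line, carrying pBABE-hygro-MYC and pMN-IRES-GFP-PI3KH1047R, so that both MYC and a mutant PI3K were ectopic in every group. A further plasmid of the pLKO-tetON-puro series carried the scramble hairpin (shSCR), the hairpin labelled shG9a 1 or the hairpin labelled shG9a 4, here called shG9a_1 and shG9a_4. All cells, controls included, received doxycycline at 2 µg/mL for 72 h to induce the hairpin. Each group had 3 MYC libraries made with the N262 antibody, described by the submitters as biological replicates, and 3 DNA inputs that are not analysed here. The files used hold no G9a measurement, so the knockdown itself was not checked, and the results rest on 1 cell line.

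MYC is a transcription factor that binds DNA as a dimer with MAX, by preference at the E-box, and most of its sites lie in open chromatin at active promoters and enhancers, which crowd together in gene-rich parts of the genome. A site with no reproducible neighbour over a long stretch lay far from other reproducible MYC regions. Whether it also lay apart from active promoters and enhancers was not analysed. G9a, the product of EHMT2, is a histone H3 methyltransferase linked to gene silencing and has been described as a partner of MYC in repression. The comparison asked how such lone sites differed in strength and width, and how often they were still listed after induction of the G9a hairpins. Genes at or near the sites were not analysed here, and no sequence was read for them.

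The lists held 19781 to 34051 peaks on chromosomes 1 to 22 in shSCR, 111, 11309 and 12896 in shG9a_1, and 11044 to 17206 in shG9a_4. The list of shG9a_1 replicate 1, with 111 peaks of a median width of 80 bp, stood apart from the 8 others, whose median widths were 223 to 276 bp. Depth recovered from the peak values, relative to the shSCR mean, was 0.925 to 1.04 in shSCR and 0.840 to 2.65 in the 5 remaining shG9a libraries. Every shG9a list was thus shorter than every shSCR list, and list length moved with the groups. A region that a list leaves out was under the caller's limit in that library, which is not the same as unbound.

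Isolated sites leaned to the weak side of the MYC-bound regions. To score strength, the best peak of a region was ranked by q-value in each shSCR list, and the 3 percentiles were averaged. These values come from the libraries that chose the sites, so they are given as a description and without a test. The median strength was 60.9 for isolated sites and 67.2 for the others. Within the lists, the median percentile of isolated sites was 67, 72.1 and 54.0 in shSCR replicates 1, 2 and 3, against 73, 78 and 62.4 for the others, so isolated sites ranked lower in each library. The authors' fold enrichment, a ratio of the pileup at the summit to the local background, had a median over the shSCR lists of 8.10 at isolated sites and 8.83 at the others. The upper quartiles of the mean fold lay farther apart, at 10.6 and 12.3. The highest mean fold was 36.7 among the 683 isolated sites and 101.5 among the 13314 others, and a maximum tends to rise with the number of regions. Isolated sites made up 5.64% of the regions in the weakest strength decile, 7.21% in decile 3, 4.14% in decile 8 and 2.14% in the strongest.

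**Figure D1:**
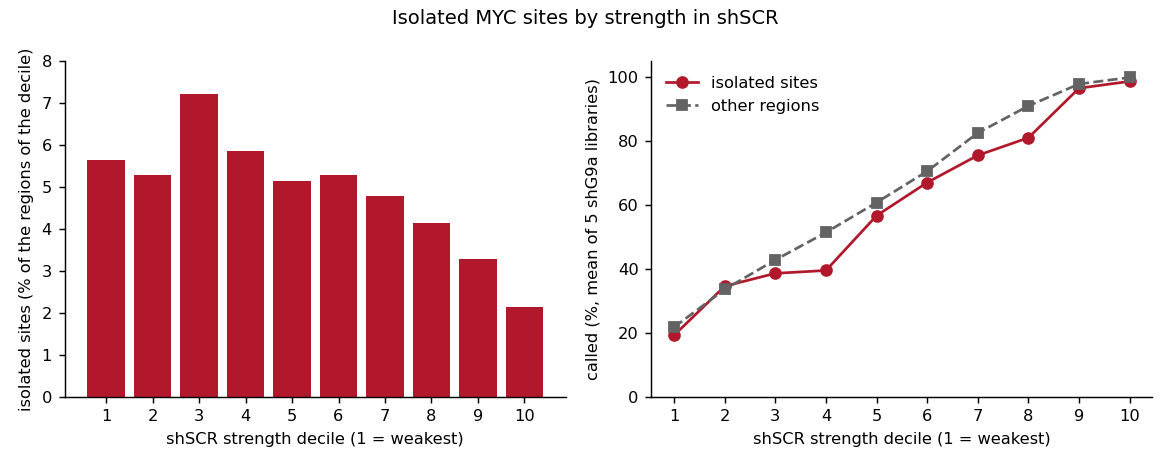
Left, isolated sites as a percentage of all shSCR-reproducible regions in each decile of shSCR strength, from 5.64% in the weakest to 2.14% in the strongest. Right, the percentage of isolated sites (circles) and other regions (squares) called, averaged over 5 shG9a libraries (without shG9a_1 replicate 1), with the circles below the squares in each decile except decile 2.

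Strength varied between the shSCR replicates about as much as at other regions of like strength. The median SD of a site's 3 percentiles was 14.3 points at isolated sites, 12 at the others and 14.6 at the others of like strength. "Like strength" here means that the other regions were averaged within 50 equal-size strength classes, weighted by the number of isolated sites in each class.

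Isolated sites were also narrower, in part because the rule has a width limit. The best shSCR peak was 299 bp wide at the median of the isolated sites, 362 bp at the others and 336 bp at the others of like strength. In the shG9a libraries, whose peaks also entered the merged width that the rule limits, the median peak at isolated sites was 212 and 231 bp wide in shG9a_1 replicates 2 and 3 and 210, 257 and 207 bp in shG9a_4 replicates 1, 2 and 3. All other regions listed there had wider peaks, at 250 and 272 bp and 248, 302 and 250 bp, and the others of like strength had 209 and 232 bp and 208, 264 and 212 bp. In these 5 libraries the others of like strength were weighted by all 683 isolated sites, listed or not. The isolated sites that were listed were the stronger ones: on average 19.2% were listed in the weakest decile and 98.7% in the strongest. The weighted others were therefore not matched in strength to the listed isolated sites. Their median folds were 6.20, 6.34, 5.97, 7.06 and 6.03, against 6.57, 6.85, 6.46, 7.30 and 6.63 at the listed isolated sites. The near-equal peak widths carry the same mismatch. Isolated sites mostly held a single peak: 92.7 to 95.6% of them had exactly 1 peak in a given shSCR list, against 87.3 to 92.9% of the others of like strength.

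The strongest isolated sites were listed in nearly all libraries other than shG9a_1 replicate 1. The site at chromosome 14, 59950437 to 59951229, ranked 155 among the 13997 regions, with folds of 33.6, 45.0 and 31.4 in shSCR replicates 1, 2 and 3. Its folds were 16.3 and 17.8 in shG9a_1 replicates 2 and 3, and 19.4, 17.2 and 21.2 in shG9a_4. These shG9a values all lay under all 3 shSCR values, and shG9a_1 replicate 1 did not list the site. Its nearest reproducible neighbour was 255.3 kb to the right, and the next on the left was 1056 kb away.

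The site at chromosome 2, 40006026 to 40006538, was the only isolated site listed in all 9 libraries. The shSCR folds were 17.7, 23 and 32.9. With shG9a_1 they were 6.51, 13.6 and 13.6, below every control, and with shG9a_4 17.1, 26.4 and 17.5, which overlapped the controls. Summits of the 9 libraries fell between positions 40006313 and 40006389. It bordered a stretch of 2354 kb without another reproducible region on its right side.

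The site at chromosome 14, 27311114 to 27311706, combined strength with remoteness. It had folds of 23.2, 46.7 and 16.3 in shSCR, 13.8 and 24.3 in shG9a_1 replicates 2 and 3, and 19.7, 21.1 and 18.2 in shG9a_4, so that shG9a and shSCR values overlapped. No merged region of any library lay within 1700 kb of it, and its summits in the 8 libraries that listed it spanned positions 27311355 to 27311380.

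The other 7 of the 10 strongest were spread over 6 chromosomes. One was on chromosome 2 (15731576 to 15732529), another on chromosome 5 (111496340 to 111497256) and a further one on chromosome 18 (13726076 to 13727061). Chromosome 15 held one at 49912950 to 49913441 and chromosome 3 one at 54925157 to 54925887. Chromosome 1 held a pair, at 118472096 to 118472981 and at 178062658 to 178063235. The 10 sites had strengths of 96.5 to 99.3 and mean shSCR folds of 19 to 36.7. Of these, 9 were listed in all 5 shG9a libraries other than shG9a_1 replicate 1. The exception, at chromosome 1 from 178062658, was missing from shG9a_4 replicate 1 as well but had folds of 12.5 and 16.6 in shG9a_1 replicates 2 and 3, and 20.8 and 10.5 in shG9a_4 replicates 2 and 3, against 17.2, 21.2 and 19.6 in shSCR.

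The 5 most remote sites were weaker than the 10 strongest. From the most remote on, their strengths were 53.5, 72.4, 76.2, 54.3 and 52.7, on both sides of the median of 60.9 for all isolated sites. The site farthest from any other reproducible region, at chromosome 5, 23466471 to 23466931, had no reproducible neighbour for 6217 kb on its left and 7072 kb on its right. Its shSCR folds of 8.18, 13.1 and 4.54 differed widely, and it was listed in all 3 shG9a_4 libraries with folds of 6.68, 6.05 and 5.09 but in no shG9a_1 library. The site at chromosome 13, 67804484 to 67805265, had its nearest reproducible neighbour 5496 kb away and folds of 6.53, 7.35 and 12.7 in shSCR. It was listed in 5 shG9a libraries at lower folds of 4.66 to 5.27, none of which reached the lowest shSCR value.

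A pair of remote sites were each other's next reproducible regions on chromosome 3, at 88198644 to 88199494 and 93877890 to 93878181, with 5678 kb between them. The left one had shSCR folds of 9.20, 9.51 and 10.4 and was listed in 4 shG9a libraries at 4.66 to 9.85. The right one had shSCR folds of 4.63, 11.2 and 7.90 and was listed in 3 at 4.37 to 6.97. The last of the 5 most remote sites, at chromosome 6, 67607598 to 67607797, had shSCR folds of 6.94, 6.81 and 5.98 and was listed in no shG9a library. Merged regions that were not reproducible lay much closer: 19.7 kb from the chromosome 5 site, 0.086 kb from the chromosome 13 site and 0.993 kb from the chromosome 6 site. For the left and right sites on chromosome 3 they lay at 89.7 and 17.7 kb. With peaks merged within 200 bp, the chromosome 13 site and the left chromosome 3 site were no longer among the isolated sites. At −log10 q of at least 5, the same held for the chromosome 5 site and the right chromosome 3 site.

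**Figure D2:**
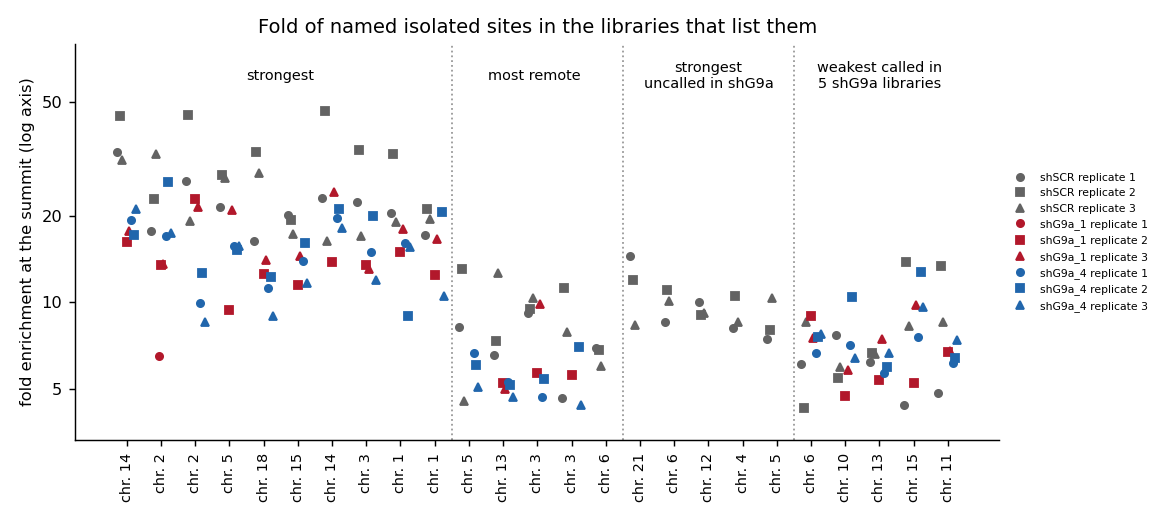
Fold enrichment at the summit (authors' values, log axis) of the named isolated sites, one column per site labelled by chromosome, in each library that lists the site. Colours mark shSCR (grey), shG9a_1 (red) and shG9a_4 (blue) and shapes the replicate; the 10 strongest sites have mean shSCR folds of 19 to 36.7, and the 5 strongest sites without a call in shG9a show shSCR points only.

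Fewer isolated sites than other regions were listed after induction of the G9a hairpins. Of the 683, 92 (13.5%, Wilson 95% interval 11.1 to 16.2%) were listed in none of the 6 shG9a libraries, against 9.42% of all 13997 reproducible regions, 9.21% of the others and 11.1% of the others of like strength. At least 5 shG9a libraries listed 152 isolated sites (22.3%, interval 19.3 to 25.5%), against 37.1% of all reproducible regions and 28.2% of the others of like strength. The remaining 439 (64.3%) were listed in 1 to 4, against 53.5% of all. The intervals cover counting error only. On average an isolated site was listed in 2.74 of the 6 shG9a libraries, one of the other regions in 3.28 and one of the others of like strength in 2.97. The 152 are the sites listed in all 5 shG9a libraries other than shG9a_1 replicate 1. Without shSCR replicate 3, whose list is the shortest of the controls, 584 sites were isolated. Of these, 219 were listed in no shG9a library and 75 in at least 5. Without shG9a_1 replicate 1, 264 sites were listed in at least 4 of the 5 libraries left. In both settings the sites were chosen anew, and the matching share over all reproducible regions was not computed.

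Library by library, isolated sites were listed less often than other regions of like strength in 5 of 6 shG9a libraries. In shG9a_1 replicate 2, 47.7% of the isolated sites were listed and 51.1% of the others of like strength, while all reproducible regions stood at 57.8%. For shG9a_1 replicate 3 the shares were 51.5% and 59.0%, with 64.6% of all. For shG9a_4 they were 48.6% and 51.9% in replicate 1 (58.5% of all), 69.7% and 73.6% in replicate 2 (77.4% of all), and 56.4% and 60.9% in replicate 3 (66.5% of all). In shG9a_1 replicate 1 the list held 1 isolated site (0.146%), with 0.113% of the others of like strength and 0.764% of all reproducible regions.

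The gap, isolated sites less others of like strength, was −3.77 ± 2.41 percentage points (SD, n = 6 libraries). It had p = 0.0625 in a two-sided exact sign-flip permutation test over the libraries, where 0.03125 is the smallest possible. Without shG9a_1 replicate 1 the gap was −4.53 ± 1.71 points (SD, n = 5; exact permutation p = 0.0625, then the smallest possible), negative in 5 of 5 libraries. The test covers the spread between libraries, which all read the same regions, and not the choice of regions. The width limit applies to isolated sites alone. Against others of like strength under the same limit the gap was −2.91 ± 2.11 points (SD, n = 6; exact permutation p = 0.0625), and −3.49 ± 1.72 points without shG9a_1 replicate 1 (SD, n = 5; exact permutation p = 0.0625). Because shG9a peaks also entered the merged width, regions were merged again from the shSCR lists alone, a choice made after seeing the data. This gave 686 isolated sites and a gap of −3.89 ± 2.62 points (SD, n = 6; exact permutation p = 0.0625). Compared with others of like strength and like shSCR peak width, the gap was smaller, −1.96 ± 1.67 points (SD, n = 6; exact permutation p = 0.03125). That lower p came with a change of sign in shG9a_1 replicate 1, to −0.0286 points from a single listed site, and without that library the same gap was −2.35 ± 1.54 points (SD, n = 5; exact permutation p = 0.0625). With a call required to cover 50% of the best shSCR peak it was −2.04 points (exact permutation p = 0.03125, n = 6).

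**Figure D3:**
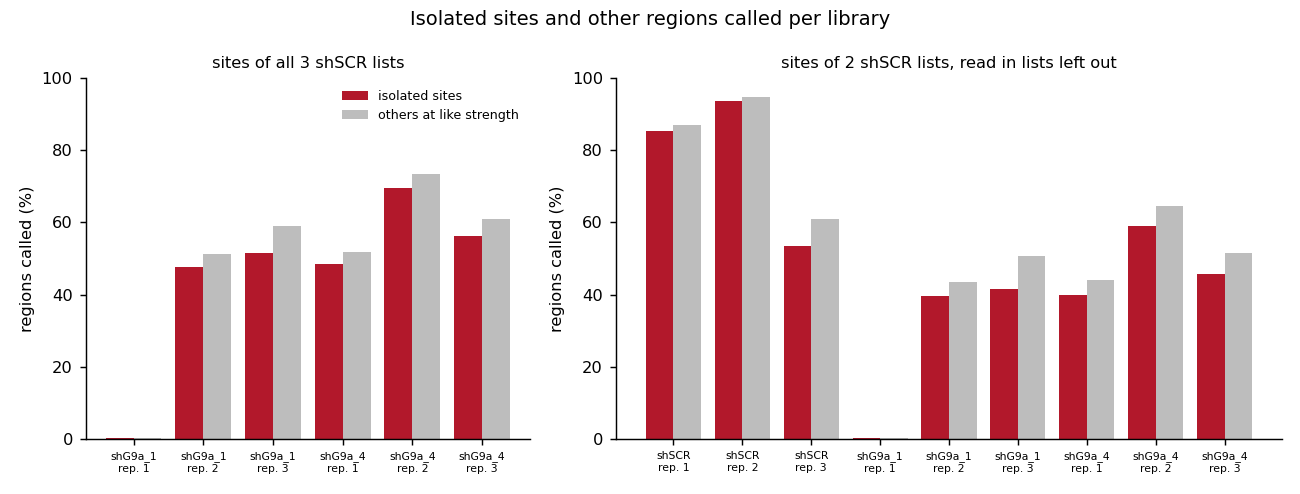
Percentage of isolated sites (red) and of other regions at like strength (grey) called in each library. Left, sites chosen from all 3 shSCR lists; right, sites chosen from 2 shSCR lists and read in the shSCR list left out (1 value) or in each shG9a list (mean over the 3 choices). Grey exceeds red in every library shown except shG9a_1 replicate 1, where both are under 1%.

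The deficit was largest in strength deciles 4, 8 and 7. In strength decile 4, 39.5% of the 82 isolated sites were listed on average over the 5 shG9a libraries, against 51.4% of the others, and the difference was negative in all 5 (−19.9 to −7.11 points). In decile 8 the shares were 81.0% of 58 and 91.0% (−15.1 to −4.99 points), and in decile 7 they were 75.5% of 67 and 82.5% (−10.3 to −1.97 points). In decile 2 isolated sites were listed slightly more often, 34.6% of 74 against 33.6%, with libraries on both sides of 0. In the strongest decile, 98.7% of 30 isolated sites and 99.9% of the others were listed.

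Because the rule used the shSCR calls, calls in shSCR and shG9a could be compared only on sites chosen without the shSCR library being read. Isolated sites were therefore chosen anew from each pair of shSCR lists, which gave 665, 679 and 582 sites when replicates 1, 2 and 3 were left out. The shSCR list left out held 85.4%, 93.7% and 53.4% of them. The shG9a_1 lists held 0.156%, 39.5% and 41.4% (means over the 3 choices), and the shG9a_4 lists 39.7%, 58.9% and 45.6%. The value of shSCR replicate 3 lay below the mean of shG9a_4 replicate 2, but that mean includes other choices of sites. On the 582 sites read in shSCR replicate 3, shG9a_4 replicate 2 held 47.6% and the other shG9a lists 0.172 to 33.2%. On those sites shSCR replicate 3, at 53.4%, lay above all 6 shG9a libraries. The other controls lay above all 6 as well.

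Isolated sites chosen in this way were listed less often in shG9a, at 37.5 ± 19.7% (SD, n = 6), than in the shSCR list left out, at 77.5 ± 21.2% (SD, n = 3). The difference of 40.0 points had p = 0.0238 (two-sided exact permutation test, smallest possible 0.0119), and without shG9a_1 replicate 1 it was 32.5 points (exact permutation p = 0.0357). The call was lost without shSCR replicate 1 (32.0 points) or replicate 2 (28.0 points), each with exact permutation p = 0.0714, and without shG9a_1 replicate 3 (40.7 points) or shG9a_4 replicate 1 (40.4 points), each with exact permutation p = 0.0536. With all lists other than shG9a_1 replicate 1 shortened to 11044 peaks, the difference was 6.32 points (exact permutation p = 0.0357, n = 3 and 5). The other reproducible regions showed a like fall, from 84 ± 14.7% (SD, n = 3) to 48.1 ± 24.2% (SD, n = 6).

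The gap at like strength was present in the controls as well. In the shSCR list left out, isolated sites were listed less often than others of like strength by −1.74, −1.26 and −7.62 points for replicates 1, 2 and 3. In the shG9a lists the gaps, as means over the 3 choices of sites, were 0.0563, −4.11 and −9.24 points with shG9a_1. They were −4.19, −5.60 and −6.05 points with shG9a_4. Read on the same sites and without shG9a_1 replicate 1, the shG9a gaps were −9.69 to −3.65 points where shSCR replicate 1 was left out. They were −9.60 to −3.86 points for replicate 2 and −8.43 to −4.32 points for replicate 3. All 5 lay below the control for replicates 1 and 2, and on both sides of it for replicate 3. The mean gap was −3.54 ± 3.55 points for the 3 controls and −4.86 ± 3.04 points for the 6 shG9a libraries (SD), and the difference of 1.32 points had p = 0.560 (two-sided exact permutation test). Without shG9a_1 replicate 1 the difference was 2.30 points (exact permutation p = 0.268, n = 3 and 5). A larger deficit of isolated sites under the G9a hairpins was not detected by this test with 3 controls. The test sets 1 choice of sites per control against means over 3 choices, and the differences within each choice were not tested. The sign of the difference in mean gap turned when any of the 3 shSCR libraries was left out, to −0.793, −1.87 and −2.76 points without replicates 1, 2 and 3.

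The hairpins were not told apart at isolated sites. The lists of shG9a_1 held 33.1 ± 28.6% of the 683 sites (SD, n = 3) and those of shG9a_4 58.2 ± 10.7% (SD, n = 3; exact permutation p = 0.200, smallest possible 0.100). Without shG9a_1 replicate 1 its mean was 49.6 ± 2.69% (SD, n = 2), a difference of −8.59 points (exact permutation p = 0.400). The gap at like strength was −3.61 ± 3.75 points with shG9a_1 and −3.92 ± 0.604 points with shG9a_4 (SD, n = 3 each; exact permutation p = 0.900). No shG9a_1 library listed 231 isolated sites (33.8%, against 25.2% of all reproducible regions), and no shG9a_4 library listed 126 (18.4%, against 13.4% of all). Calls from shG9a_4 but from neither shG9a_1 replicate 2 nor 3 were found at 139 isolated sites (20.4%), against 18.5% of the others of like strength. Calls from shG9a_1 but from no shG9a_4 library were found at 34 (4.98%), against 4.74%. By the strictest count, 16 isolated sites (2.34%) had every shG9a_4 call but none from shG9a_1, against 2.38% of the others of like strength, and 2 (0.293%) had calls from shG9a_1 replicates 2 and 3 but none from shG9a_4, against 0.568%.

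Across all reproducible regions under 1000 bp, calls in shG9a at like strength were fewer beyond 100 kb from the nearest neighbour than closer to it. Each class of distance was set against all such regions of the same strength, leaving out shG9a_1 replicate 1 (5 libraries). Regions with a neighbour within 10 kb (4591) were listed 0.377 ± 0.506 points more often (SD, n = 5 libraries), and those at 10 to 50 kb (3837) 0.548 ± 0.798 points more often. At 50 to 100 kb (1809 regions) the deviation was −0.162 ± 0.880 points, and at 100 to 250 kb (1309) it was −1.02 ± 0.700 points and negative in 5 of 5 libraries.

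Inside the isolated range the deviation went further down. It was −2.50 ± 1.21 points for the 448 sites at 250 to 500 kb and −5.38 ± 3.02 points for the 167 sites at 500 to 1000 kb, negative in 5 of 5 libraries in both. For the 68 sites beyond 1000 kb it was −4.37 ± 5.29 points and negative in 4 of 5, from −11.7 in shG9a_1 replicate 3 to 2.84 in shG9a_4 replicate 1. Strength and width moved with distance too: the median strength was 61.8, 60.5 and 54.1 in these 3 classes, and the median shSCR peak width 308, 281 and 289 bp, against 62.9 and 334 bp within 10 kb. Strength is matched in these deviations and width is not, and the part of width was not tested class by class. The shSCR lists left out were not read by distance, so whether the controls had a like pattern was not tested.

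**Figure D4:**
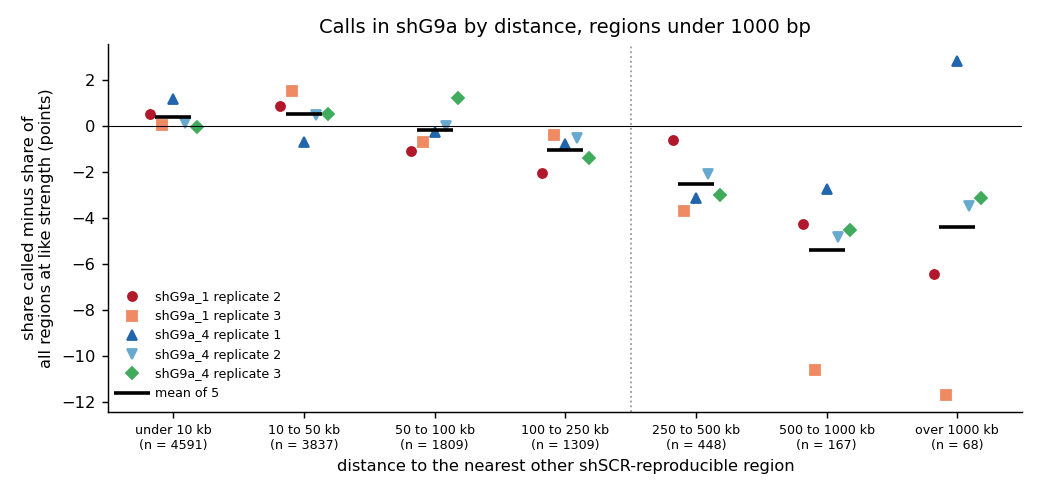
Share of regions called in each of 5 shG9a libraries less the share of all regions under 1000 bp of the same shSCR strength (percentage points), by distance to the nearest other shSCR-reproducible region; bars are means of the 5 libraries. Isolated sites lie to the right of the dotted line, with means of −2.50, −5.38 and −4.37 points.

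Most isolated sites were not alone once irreproducible peaks were counted. Within 250 kb of the 683 sites lay a median of 3 other merged regions per site, and at most 18. Of the 2586 such neighbours, 62.1% were listed in 1 shSCR library, 32.1% in 2 and 5.84% in none. No merged region of any library lay within 250 kb of 76 sites (11.1%). These 76 had a median strength of 55.7, a median shSCR fold of 7.96 and a median shSCR peak width of 263 bp. No shG9a library listed 16 of them (21.1%), and at least 5 listed 17 (22.4%), against 9.42% and 37.1% of all reproducible regions. For the other 607 sites the counts were 76 (12.5%) and 135 (22.2%). The gap at like strength averaged −8.63 points (−12.9 to −4.29 over 5 libraries) at the 76 and −4.01 points (−6.77 to −2.55) at the 607. The neighbours were counted in all 9 lists, so shG9a calls entered this division, and it is given without a test.

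Isolated sites were spread unevenly over the chromosomes, as the distance rule implies for chromosomes with few regions. They made up 13.2% of the 530 reproducible regions of chromosome 4 and 10.7% of the 272 of chromosome 13, the chromosomes with the fewest such regions per Mb (2.78 and 2.87). On chromosome 19, with 13.0 regions per Mb, 2 of 765 regions were isolated (0.261%), and on chromosome 22 they were 2 of 347. Chromosomes 2, 4 and 5 together held 201 isolated sites (29.4%) but 16.1% of the other regions. Chromosomes 16, 17, 19 and 22, which are gene-dense, held 30 (4.39%) against 19.2% of the others.

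Calls in shG9a are given for the chromosomes with the lowest and the highest shares of sites in no shG9a list among those with more than 2 isolated sites, beside 9.42% and 37.1% of all reproducible regions listed in none and in at least 5. None of the 29 isolated sites of chromosome 13 was missing from all shG9a lists and 10 were listed in at least 5. On chromosome 21, 3 of 6 were missing from all and none was listed in at least 5. The median strength of isolated sites was 63.2 on chromosome 13 and 47.7 on chromosome 21. These chromosomes were picked after their values were seen, the counts are small, and variation between chromosomes was not tested.

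**Figure D5:**
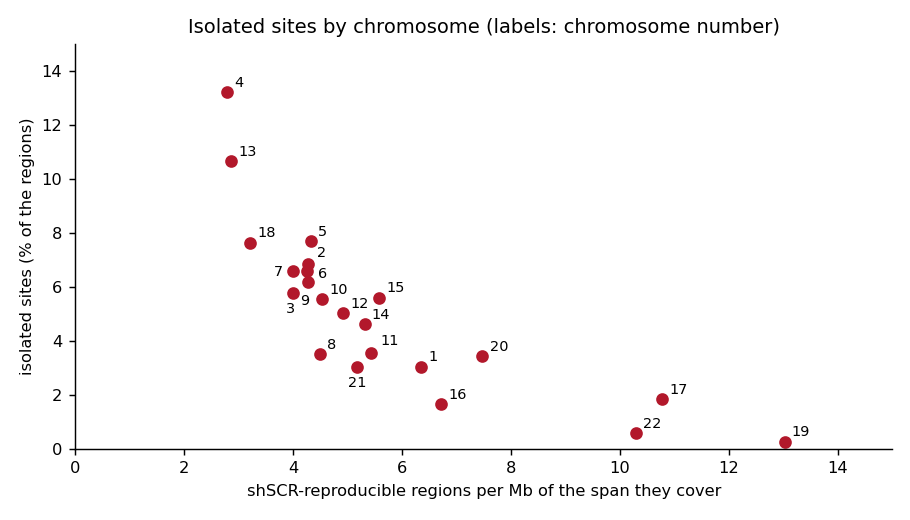
Isolated sites as a percentage of the shSCR-reproducible regions of each of 22 chromosomes (labelled points), against the number of such regions per Mb between the first and the last of them. Chromosome 4 is highest at 13.2% and chromosome 19 lowest at 0.261%.

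Where isolated sites were listed in all libraries, their height was that of other regions of like strength. Pileup over background is the fragment pileup at the summit, recovered from the deposited fold and p-value, divided by the lowest background shared by at least 1% of the peaks of the library. At the 152 isolated sites listed in all 8 libraries other than shG9a_1 replicate 1, its median was 46.9, 59.4 and 46.6 in shSCR, 32.4 and 31.1 in shG9a_1 replicates 2 and 3, and 20.1, 37.8 and 19.4 in shG9a_4. All 5 shG9a medians lay under the 3 shSCR medians. Means were 51.0 ± 7.30 (SD, n = 3) and 28.2 ± 8.07 (SD, n = 5), which is 44.8% lower in shG9a. The 5039 other regions listed in those 8 libraries had 56.9 ± 6.06 and 31.4 ± 8.66, also 44.8% lower. In each library, the isolated median was 0.941 to 1.00 times that of the others of like strength. These sites were picked by their calls in both groups, so no test is given, and the lowest medians came from the deepest of these libraries, shG9a_4 replicates 1 and 3; the part of depth was not tested. Over all isolated sites listed in a library, the medians were lower: 31.0 ± 3.92 over the 3 controls and 21.9 ± 5.26 over 5 shG9a libraries (SD).

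Summits of the 3 shSCR libraries spanned a median of 64 bp at isolated sites, 66 bp at all others and 72 bp at the others of like strength, and 37.3%, 38.1% and 34.0% of these regions had the 3 summits within 50 bp. The summit in shG9a lay within 50 bp of the median shSCR summit at 64.1% and 65.9% of the isolated sites listed in shG9a_1 replicates 2 and 3, and at 69.6%, 67% and 71.7% of those listed in shG9a_4 replicates 1, 2 and 3. For all others the shares were 61.4%, 62.8%, 65.0%, 63.9% and 68.3% in the same order, and for the others of like strength 54.6%, 54.7%, 57.8%, 58.3% and 61.0%, lower than at isolated sites in each of the 5 libraries. As with the peak widths above, these others were weighted by all isolated sites, listed or not. They were therefore not matched in strength to the listed isolated sites, and their median folds were lower. Median distances in the 5 libraries were 25.0 to 37.0 bp at isolated sites and 37.0 to 44.0 bp at the weighted others. Shares and distances both carry the mismatch, so whether summits lay closer at isolated sites of equal strength was not tested. Isolated sites were narrower and more often single-peaked, and the part of this in the summit distances was not tested.

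The 92 isolated sites that no shG9a library listed had a median strength of 42.3, a median shSCR fold of 6.50 and a median shSCR peak width of 224 bp. For the 152 listed in at least 5 libraries these were 84.7, 12.4 and 481 bp, and for the 439 between them 56.5, 7.77 and 287 bp. The strongest of the 92 lay at chromosome 21, 29765626 to 29765979, with shSCR folds of 14.5, 12 and 8.31 and a strength of 78.1. The next lay at chromosome 6, 78944971 to 78945253, with folds of 8.55, 11.1 and 10.1, and had no reproducible region within 631.8 kb. The site at chromosome 12, 81171986 to 81172261, was the most remote of these 5, at 1087 kb, and had even folds of 10.0, 9.01 and 9.15. The site on chromosome 4 (88928563 to 88929050) had a mean shSCR fold of 9.07 ± 1.26 and the one on chromosome 5 (75698884 to 75699157) one of 8.62 ± 1.54 (SD, n = 3 each).

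At the other end, 5 weak isolated sites were nevertheless listed in all 5 shG9a libraries. The weakest, at chromosome 6, 145568910 to 145569310, had a strength of 41.6 and folds of 6.11, 4.29 and 8.53 in shSCR. Its folds were 8.97 and 7.50 in shG9a_1 replicates 2 and 3 and 6.68, 7.60 and 7.73 in shG9a_4, all within or just above the shSCR range. The site at chromosome 13, 34731195 to 34731535, had shSCR folds of 6.17, 6.68 and 6.61. It had folds of 5.35 and 7.48 in shG9a_1 replicates 2 and 3, and of 5.69, 5.97 and 6.67 in shG9a_4, and the groups overlapped. The remaining sites were on chromosome 10 (16478772 to 16479690), 15 (47676554 to 47676888) and 11 (120894634 to 120895026). Strength SDs at the last 2 were 41.4 and 33.9 points, so their place in the order was poorly fixed by the 3 shSCR libraries.

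The regions nearest the limits of the rule differed in fold and in calls. The sites just inside the distance were each other's neighbours, at chromosome 7, 18906097 to 18906568 and 19156768 to 19157374, 250.2 kb apart, with mean shSCR folds of 9.78 and 7.79 and 4 shG9a calls each. The regions just outside it were at chromosome 7, 46719864 to 46720121 and 46970067 to 46970330, 249.9 kb apart, with mean folds of 5.49 and 6.32 and no shG9a call. Just inside the width limit were chromosome 4, 148652941 to 148653939 (999 bp, mean fold 6.92), and chromosome 10, 28821166 to 28822163 (998 bp, 9.41). Just outside it were chromosome 8, 87354267 to 87355267 (1001 bp, 8.36), and chromosome 10, 76585020 to 76586022 (1003 bp, 20.9).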

How the data were processed

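MYC ChIP-seq was deposited as 1 peak list per library for 9 libraries. Per the submitters' processing notes, the tools were MACS2 2.1.0, Picard 2.7.1, SAMtools 1.3 and STAR 2.5.2a, on hg19 (GRCh37); their settings: not given in the sources used here. The deposited lists give the authors' score, fold enrichment (a ratio), −log10 p and −log10 q at each summit, with q adjusted within each library. Of 151062 peaks, 2606 outside chromosomes 1 to 22 were left out. A region counted as called, or listed, in a library with a peak in it. Pileups were recovered as the whole number that reproduced fold, (pileup + 1)/(background + 1), and the Poisson p-value within 0.001 on the −log10 scale, which held for 100% of peaks. Depth is the lowest shared background over the shortest peak. Gaps at like strength used 50 strength classes. Tests were exact permutation tests over libraries (Python 3.11.15, numpy 2.4.6, scipy 1.17.1), and gaps and merging were tested on simulated data. Named sites were the 10 strongest, the 5 most remote, the 5 strongest in no shG9a list, the 5 weakest in 5 shG9a lists and the 2 on each side of a limit. Members, lists and tests were chosen with earlier results of these data known. Alternatives were stricter q and fold limits, other merging, overlap, distance, width and strength rules, lists cut to equal length, omission of each library and a replicate block. RefSeq gene tables are on GRCh38 and were not used.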

Additional observations from a re-analysis of the deposited data

Results flagged for a closer look

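A library far from the other shG9a libraries accounted for 3 results, all of them in shG9a_1 replicate 1, whose list held 111 peaks on chromosomes 1 to 22. It called 0.146% of the 683 isolated sites, where the other 5 called 47.7 to 69.7%. It called 0.156% of the isolated sites chosen from pairs of shSCR lists, where the other 5 called 39.5 to 58.9%. The peak at its only isolated site was 92 bp wide, where the medians of the other 5 were 207 to 257 bp. Each value lay farther from its nearest neighbour, relative to the range of the 6 libraries, than Dixon's 95% limit allows, a limit that chance passes in about 1 of 20 groups. The 6 libraries are of 2 hairpins and were pooled for this. No explanation was tested.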

How the results depend on the processing

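The gap of isolated sites to others of like strength was negative in every setting, from −9.38 to −1.96 points, with exact permutation p from 0.03125 to 0.125. Its exact permutation p was 0.03125 at −log10 q of at least 5 (−2.85 points), fold of at least 5 (−3.63), calls covering 50% of the best shSCR peak (−2.04), distances of 100 kb (−2.74) and 500 kb (−5.06), a 500 bp width limit (−9.38), 20 strength classes (−3.85), strength by pileup (−2.998) and strength with width (−1.96). This p needs all 6 libraries, shG9a_1 replicate 1 included, on 1 side. Numbers of isolated sites were 1992 at 100 kb, 235 at 500 kb, 221 with neighbours called in any 2 libraries and 414 with the 500 bp limit. There were 683 with 50% coverage and 755 with equal peak numbers. Sites in no shG9a list were 175 with 50% coverage, 275 at 100 kb, 41 at 500 kb, 32 with neighbours in any 2 libraries and 20 with equal peak numbers. Sites in at least all but 1 shG9a list were 51, 542, 45, 48 and 550 in the same settings, and 40 with the 500 bp limit. Equal peak numbers leave out shG9a_1 replicate 1, so the 550 are in at least 4 of 5 lists, and the others in at least 5 of 6. The matching shares over all reproducible regions were not computed for any alternative setting, so these counts are no comparison with other regions. The 500 bp limit was set on isolated sites and not on the others, and narrow regions include those with few or small shG9a peaks. After the data were seen, regions were also merged from the choosing shSCR lists alone, which gave 39.6 for the held-out difference (exact permutation p = 0.0238) and changed no call. With the 500 bp limit as well, the gap was −8.84 points (exact permutation p = 0.03125), with 431 sites, 44 of them in at least 5 shG9a lists. Equal peak numbers shorten the shSCR lists most, by construction. Pileup over background was 51.0 in shSCR and 28.2 in shG9a at sites called in all 8 libraries. Leaving out 1 library at a time gave gaps of −4.98 to −3.02 points, differences between hairpins of −34.3 to −8.59, held-out differences of 28.0 to 44.2 in calls and −2.76 to 2.30 in gaps, 584 to 702 isolated sites, 92 to 219 in no shG9a list and 75 to 264 in all but 1. The last difference in gaps reversed only without a shSCR library, where sites rest on 1 list. Permuting only among same-numbered libraries, as a replicate block, the hairpin difference of −25.1 had p = 0.25 and the held-out differences of 40.0 and 1.32 had p = 0.037 and p = 0.407 (exact permutation), and no call changed. The numbers were not read as pairs: at isolated sites same-numbered libraries correlated at −0.0504 to 0.0956, and 6 of 9 correlated best with their own number. Depth limits what an absent call shows, since weaker peaks are not listed.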

Other observations

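About as many isolated sites stood in a run of isolated sites along the chromosome as stood by themselves. With neighbours taken in order of position among the 13997 reproducible regions, 334 isolated sites stood between regions that were not isolated, and 349 stood in runs of 2 or more. There were 91 runs of 2 and 48 of 3 or more, the latter with 167 sites. The longest runs had 6 sites. One lay at chromosome 2, 4962131 to 8492777, where 2 of the 6 sites were listed in no shG9a library and 1 in at least 5. The other lay at chromosome 13, 32889455 to 35516200, where none was missing from all shG9a lists and 1 was listed in at least 5. A run of 5 at chromosome 9, 7799194 to 14027467, held 3 sites listed in at least 5 shG9a libraries, and a run of 5 at chromosome 4, 26862233 to 36246425, held none, as did a run of 5 at chromosome 11, 26605163 to 30345032. On at least 1 side, 329 isolated sites (48.2%) bordered a stretch of more than 1000 kb without a reproducible region. Over all 683 isolated sites, 13.5% were listed in no shG9a library and 22.3% in at least 5, and in all reproducible regions 9.42% and 37.1%. Runs were described after the sites were known and were not tested.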
